A study of Mus musculus with 2 samples.

Results

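The clustered histone genes of the mouse encode the linker histone H1 and the core histones H2A, H2B, H3 and H4. They were taken as every gene with a protein-coding transcript whose symbol starts with Hist1h, Hist2h, Hist3h or Hist4h, which gave 67 of 55536 annotated genes. They were read in a single group of 2 male mice, given by the labels as strain 5xFAD/CAST, from which the left cerebral cortex was taken at an age of 8 to 10 months. The 5xFAD line is a transgenic mouse model of amyloid disease whose transgenes are driven by the neuronal Thy1 promoter, and CAST mice are an inbred line of wild origin. The replicates carried the same labels for strain, sex, age, tissue and donor and separate biosample labels, and 300.0 ng of RNA entered each library. No animal without the transgenes was analysed here, so the data give levels of these genes in this cortex and a comparison of the animals, replicates 2 and 1. Each value is from 1 library, an SD is over the 2 animals, and no difference between the animals is replicated. In bulk tissue, fewer cells of a type and less RNA per cell cannot be told apart.

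Most genes of these clusters are replication-dependent: they are transcribed mainly in S phase, when new DNA is packed into nucleosomes, and they have no introns. Their mRNAs end in a stem-loop in place of a poly(A) tail, which the stem-loop binding protein Slbp recognises, so that libraries made by poly(A) selection hold few of them. The present libraries were made from total RNA with a directional kit, and the label of their spike-ins names ribosome-reduced libraries, so that no poly(A) selection is stated. Neurons no longer divide, and non-dividing cells can make new histone from replication-independent genes such as H3f3a and H3f3b.

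The stem-loop was searched in the transcript models of the annotation (GENCODE M21, build GRCm38) as a window of 16 bases on the transcript strand. The window starts with GG, ends with CC, has T at the first 3 loop bases and pairs 6 bases on each side with at most 1 mispair, G with T counting as a pair. It lay in the 3′ UTR of 44 of the 67 genes, at 21 to 58 bases after the stop codon (median 31). There were 6 forms of the 16 bases, which are shown in capitals with their flanks because they separate the H4 genes from the other classes.
Hist1h1c: caaaaGGCTCTTTTCAGAGCCaccact
Hist2h2aa2: aaaaaGGCTCTTTTCAGAGCCacccac
Hist2h2ac: aaaaaGGCTCTTTTTAGAGCCaccaaa
Hist1h3e: aaaacGGCTCTTTTAAGAGCCacctcc
Hist1h4h: ccaaaGGCCCTTTTCAGGGCCgcccac
Hist1h4b: caaaaGGTCCTTTTCAGGACCactcac
Hist1h4i: ttaaaGGCCCTTTTTAGGGCCaccaca
The form of Hist1h1c and Hist2h2aa2 was found in 26 genes of the classes H1, H2A, H2B and H3, that of Hist1h3e in 6 of H1, H2B and H3, and that of Hist2h2ac in 1. The form of Hist1h4h was found in 7 genes, that of Hist1h4b in 2 and that of Hist1h4i in 2, all of them H4. No form was shared between H4 and the other classes. The same search in the last 200 bases found a match in 25 of 72 protein-coding transcripts of the histone genes (34.7%), against 0.220% of 58725 other protein-coding transcripts. Searched over the whole 3′ UTR, 46 of the 72 histone transcripts matched (63.9%). The other transcripts were searched over their whole length, where 2.27% matched, so these 2 shares come from unlike searches. The poly(A) signal AATAAA stood in the last 40 bases of 15 of the 72 histone transcripts (20.8%), against 39.3% of the others.

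**Figure D1:**
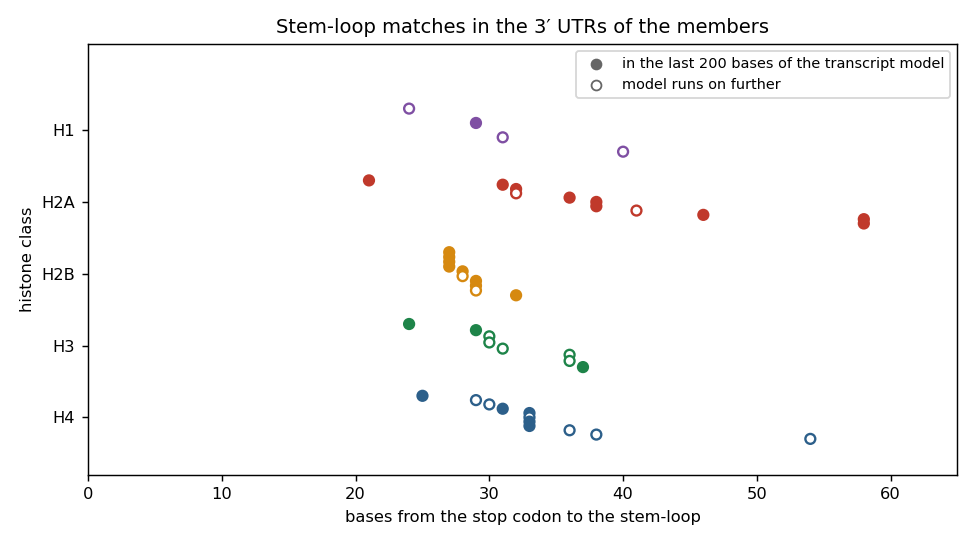
Distance in bases from the stop codon to the stem-loop (x axis) for each of the 44 genes with a match, by histone class (rows). Filled points are genes with at most 200 bases of a model after the stem-loop, and open points genes with more. Hist1h1t, with 185 bases after, is filled, although its stem-loop does not lie wholly in the last 200 bases. The distances lie between 21 and 58 bases, with the widest spread in H2A.

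The transcript models differ in where they end, which sets the length that a level is divided by. Of the 67 genes, 25 have a stem-loop wholly within the last 200 bases of a model, 19 a model that runs on further, 8 a 3′ UTR without a match and 15 a model that ends at or near the stop codon. In 13 genes a coding model holds the coding sequence alone, with gene lengths of 312 to 411 bases, and 2 of them, Hist1h2bq and Hist1h2br, have a further coding model with a 3′ UTR. The whole set runs from 312 bases in Hist1h4k to 7425 in Hist1h1d. No intron was annotated in 62 of the 67. No stem-loop can be seen in a model that stops at the stop codon, so a missing match there says nothing of the gene.

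As a group, the histone genes were expressed in this cortex, at levels close to those of an average expressed gene. A gene counted as detected at 1 or more TPM (transcripts scaled to a total of 1000000 per library) in both libraries of the deposited gene table. By that count 56 of the 67 were detected, or 83.6%, against 59.6% of all genes with a protein-coding transcript. The median level over all 67 genes was 8.17 TPM, against 4.005 TPM over all genes with a protein-coding transcript. Among detected genes the medians were 12.8 TPM for the histone genes and 15.1 TPM for all coding genes. The summed level was 1369 TPM in replicate 2 and 1364 TPM in replicate 1, which held 0.0516% and 0.0564% of the reads on genes. The median coding gene stood at 4.15 TPM in replicate 2 and 3.83 TPM in replicate 1, so equal TPM do not mean equal shares of reads. The 10 highest genes, 6 of them H4, held 58.6% of the summed TPM in replicate 2 and 60.1% in replicate 1.

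**Figure D2:**
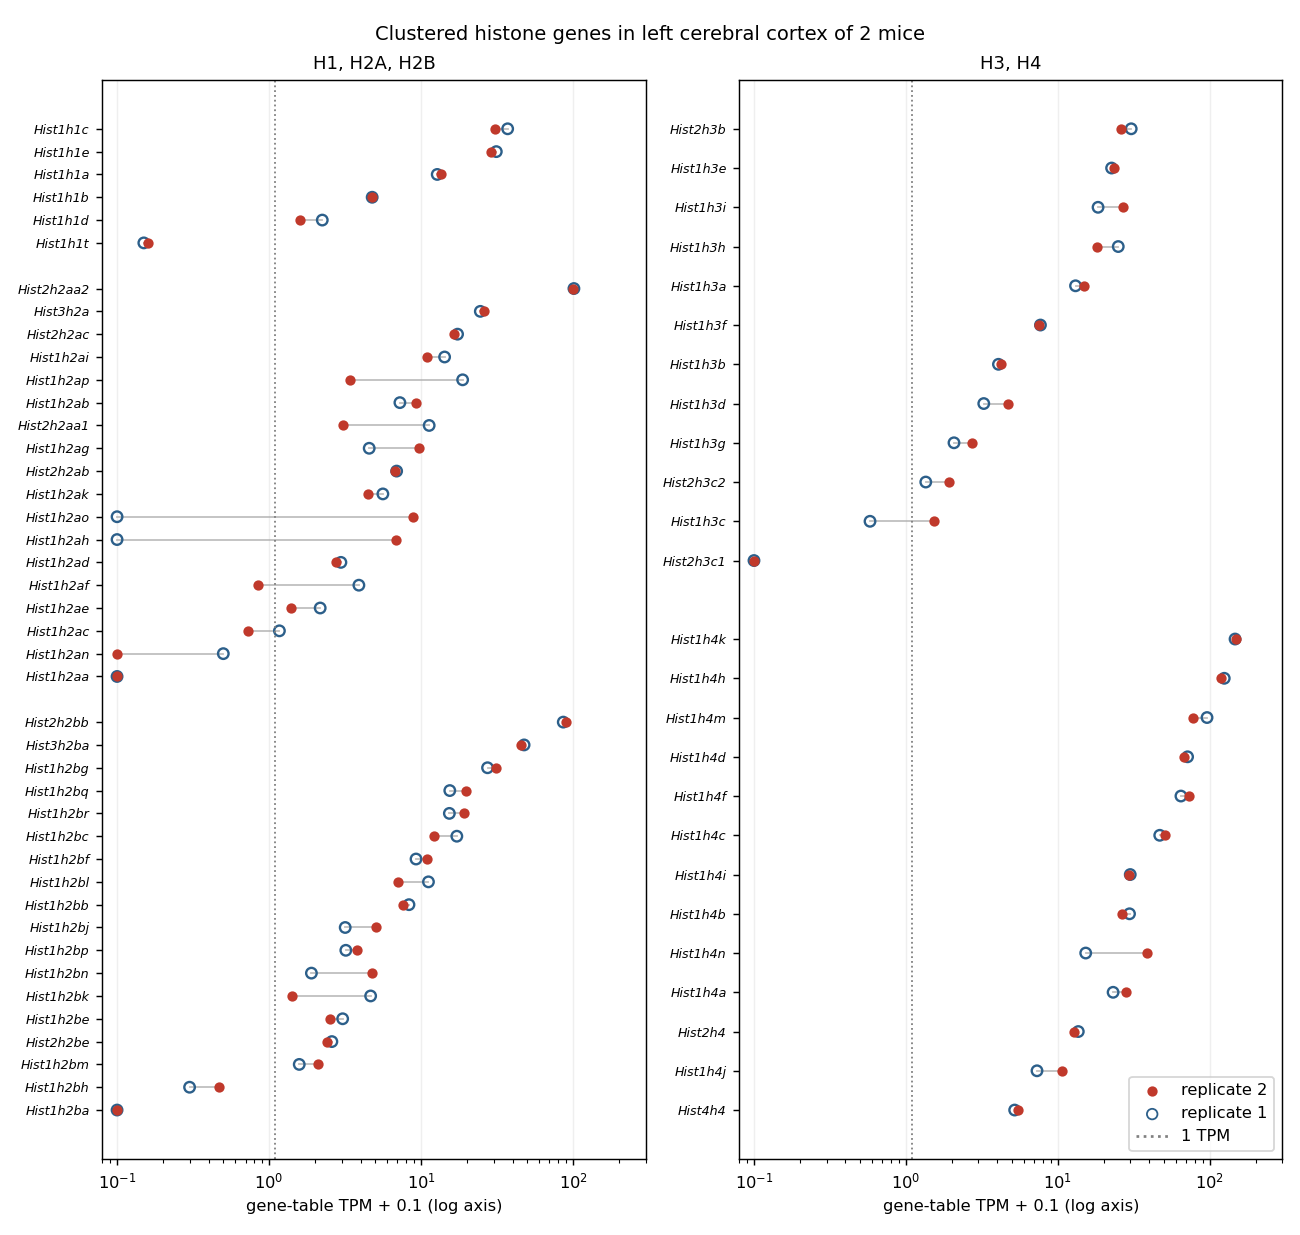
Gene-table TPM + 0.1 (log axis) of each of the 67 genes (rows, by class and falling mean), with filled points for replicate 2, open points for replicate 1 and a dotted line at 1 TPM. All 13 H4 genes lie right of the line, and the pairs of points far apart belong mostly to H2A genes such as Hist1h2ao, Hist1h2ah and Hist1h2ap.

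The linker histone H1 binds the DNA between nucleosomes and compacts chromatin. Its 6 genes summed to 78.97 TPM in replicate 2 and 87.8 TPM in replicate 1, and 5 of them were detected. Hist1h1c (chromosome 13, 23738808 to 23740367, plus strand) led with 30.6 TPM in replicate 2 and 37.1 TPM in replicate 1. Hist1h1e stood at 28.6 and 31.2 TPM in the same order, Hist1h1a at 13.5 and 12.7 TPM, Hist1h1b at 4.67 TPM in both and Hist1h1d at 1.49 and 2.14 TPM. Both leading genes were lower in replicate 2. The reads on the class were 2670 in replicate 2 and 3447 in replicate 1, a scaled log2 ratio of -0.33 (95% counting interval -0.41 to -0.26, which like all intervals below covers counting error only), the furthest from 0 among the 5 classes. Hist1h1t, a linker histone of male germ cells, had 1 read in each library.

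H2A pairs with H2B in the nucleosome, and its 18 genes include 5 of the 7 that differed between the animals by the counting rule described below. They summed to 209.98 TPM in replicate 2 and 221 TPM in replicate 1, and 12 were detected. Hist2h2aa2 (chromosome 3, 96239749 to 96240276, minus strand) alone stood at 99.89 TPM in replicate 2 and 101 TPM in replicate 1. Hist3h2a followed with 25.8 and 24.4 TPM and Hist2h2ac with 16.5 and 17.3 TPM, in both cases close to equal. Between 10 and 15 TPM stood Hist1h2ai, at 10.9 TPM in replicate 2 and 14.2 TPM in replicate 1. Hist1h2ap had 3.30 TPM in replicate 2 and 18.7 TPM in replicate 1. The other genes averaged 8.17 TPM or less, and Hist1h2aa, a histone of testis, had no read in either library of the gene table and 4 reads, 0.812 TPM, in replicate 2 of the kallisto-format table.

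Among H2B genes the highest were not in the large chromosome 13 clusters. The 18 genes summed to 264 TPM in replicate 2 and 257 TPM in replicate 1, and 16 were detected. Hist2h2bb (chromosome 3, 96269752 to 96270132, plus strand), whose model is the coding sequence alone, stood at 89.4 TPM in replicate 2 and 86.2 TPM in replicate 1. Hist3h2ba (chromosome 11, 58948920 to 58949533, plus strand) stood at 45.4 and 47.5 TPM in the same order. Hist1h2bg, the highest H2B gene of chromosome 13, stood at 30.9 and 27.3 TPM. Hist2h2be, which in mouse encodes an H2B variant known from olfactory neurons, stood at 2.30 TPM in replicate 2 and 2.49 TPM in replicate 1. Hist1h2ba, the H2B of testis and Hist1h2aa's neighbour, had no read in either library of either table, which allows up to 0.0926 CPM in replicate 2 and 0.0884 CPM in replicate 1 (3 reads over the reads on genes).

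H3, whose tail carries many of the marks of active and silent chromatin, had no gene as high as the leading genes of H2A, H2B or H4. Its 12 genes summed to 131 TPM in replicate 2 and 127 TPM in replicate 1, and 10 were detected. Hist2h3b (chromosome 3, 96268654 to 96269141, plus strand) stood at 25.9 TPM in replicate 2 and 30.2 TPM in replicate 1, Hist1h3e at 23.2 and 22.4 TPM, Hist1h3i at 26.8 and 18.3 TPM and Hist1h3h at 17.9 and 24.8 TPM. The order of these 4 genes differed between the animals. Their coding sequences spell 3 distinct proteins over all coding transcripts of the 12 genes, one encoded by 4 genes that summed to 62.1 TPM in replicate 2 and 58.01 TPM in replicate 1. The 8 genes of another protein summed to 68.4 and 69.1 TPM in the same order.

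H4, the most conserved core histone, took the largest share of the set. All 13 genes were detected, and they summed to 686 TPM in replicate 2 and 671 TPM in replicate 1, or 50.1% and 49.2% of the TPM of all histone genes. By reads, which are not divided by length and so give long models more weight, H4 took 42.6% in replicate 2 and 40.99% in replicate 1. The median H4 gene stood at 29.4 TPM, against medians of 5.76 to 8.88 TPM in the other classes. Hist1h4k (chromosome 13, 21750194 to 21750505, minus strand) led with 148 TPM in replicate 2 and 146 TPM in replicate 1. Hist1h4h (chromosome 13, 23531050 to 23531519, plus strand) stood at 119 and 124 TPM, Hist1h4m at 77.4 and 95.6 TPM, Hist1h4d at 67.9 and 71.2 TPM, Hist1h4f at 73.03 and 64.4 TPM and Hist1h4c at 50.8 and 46.6 TPM. Replicate 2 was lower in Hist1h4h, Hist1h4m and Hist1h4d and higher in the other 3. The lead of Hist1h4k, whose model has 312 bases, held in TPM only. Its 702 and 774 reads were fewer than those of Hist1h4d (1572 and 1845), Hist1h4h (981 and 1147) and Hist1h4c (816 and 839). Hist4h4, the lone histone gene of chromosome 6, was the lowest H4 gene at 5.34 TPM in replicate 2 and 5.09 TPM in replicate 1.

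All 13 H4 genes encode the same protein from different DNA. The first 60 coding bases of the 5 highest H4 genes show how far the copies differ in the reference transcripts. Capitals mark bases that differ from Hist1h4k.
Hist1h4k: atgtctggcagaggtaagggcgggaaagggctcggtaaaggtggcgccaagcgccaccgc
Hist1h4h: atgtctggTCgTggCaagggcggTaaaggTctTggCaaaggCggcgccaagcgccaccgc
Hist1h4m: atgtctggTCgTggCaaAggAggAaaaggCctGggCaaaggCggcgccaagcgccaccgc
Hist1h4d: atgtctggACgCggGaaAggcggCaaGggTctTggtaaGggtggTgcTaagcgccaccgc
Hist1h4f: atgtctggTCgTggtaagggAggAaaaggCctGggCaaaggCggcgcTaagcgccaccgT
Against Hist1h4k, 9 of these 60 bases differ in Hist1h4h, 11 in Hist1h4m, 12 in Hist1h4d and 11 in Hist1h4f. Over the 312 coding bases, the 78 pairs of H4 genes differ at a median of 19 positions and at most at 46. The only identical pair is Hist1h4m and Hist1h4n, and the next closest is Hist1h4j and Hist1h4k with 5 differences. These distances are those of the reference, and variants carried by the 5xFAD/CAST animals were not examined.

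The genes lie in 5 places. On chromosome 13 there are 31 genes between 23531050 and 23934851 and 23 between 21715763 and 22043676. The stretch of chromosome 3 from 96219865 to 96270132 holds 10, chromosome 11 holds 2 and chromosome 6 holds 1. The 31 genes summed to 575.7 TPM in replicate 2 and 576 TPM in replicate 1, and the 23 to 459 and 441 TPM. The chromosome 3 genes summed to 258 and 270.2 TPM and the 2 genes of chromosome 11 to 71.2 and 72.0 TPM. Of the 31 and 23 genes of chromosome 13, 24 and 20 were detected, and of the 10 genes of chromosome 3, 9. All 3 genes outside these stretches were detected.

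Histone genes often stand head to head, with their starts on opposite strands a short distance apart. There were 13 such pairs with starts within 1000 bases, 12 of them an H2A and an H2B gene, at distances of 176 to 660 bases (median 268). Both genes were detected in 7 of the 13. Of these 7, 3 were at least 2-fold apart in TPM the same way in both libraries, and the others were nearer or changed order. In replicate 2 and replicate 1, Hist1h2bg stood at 30.9 and 27.3 TPM beside Hist1h2ae at 1.3 and 2.07 TPM, 176 bases away. Hist2h2ac stood at 16.5 and 17.3 TPM beside Hist2h2be at 2.30 and 2.49 TPM. Their models have 520 and 2620 bases, and their reads were closer, at 154.5 and 181 beside 129 and 157. Hist1h2ai and Hist1h2bl were nearer each other, at 10.9 and 14.2 TPM beside 7.0 and 11.1 TPM. The RefSeq table of promoters (250 bases before to 50 after the start) matched 62 of the 67 genes with 63 promoters. The TATA letters TATAAA, searched on both strands, were in 55.6% of them and in 13.5% of 32788 other promoters, and the CCAAT letters, searched likewise, in 85.7% and 37.3%. A match is a description of the letters and not a bound site.

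Shared sequence limits what can be said of a single copy. Of the 67 genes, 60 had at least 1 window of 100 bases that also occurs in another gene, or 89.6%, against 22.8% of all genes with a protein-coding transcript, where windows of genes outside the set were taken every 20 bases, so that short shared stretches there can be missed. At least 50% of the windows were shared in 25 genes, or 37.3%, against 6.61%. The median histone gene shared 34.3% of its windows. The interval that the gene table deposits beside each TPM (its level is not given in the sources used here) was at least 2-fold wide in a library for 22 of the 56 detected genes, or 39.3%, against 4.23% of all detected coding genes. It was at least 10-fold wide for 5 of the 56, or 8.93%, against 0.176%. For Hist1h2br it ran from 0.10 to 27.6 TPM in replicate 1, beside a level of 15.3 TPM. For Hist1h4d, with no shared window, it ran from 66.1 to 72.4 TPM in the same library, beside a level of 71.2 TPM. Hist1h2br and Hist1h4d also differed in reads, with 108 and 1845 in that library. Hist2h2aa2, with all of its windows shared, ran from 85.6 to 107 TPM there. Hist1h2bm, with 6.59% shared and 15.7 reads, ran from 0.80 to 2.32 TPM. The shares above are not matched for length or reads, and the part of either in the widths was not tested.

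The 2 deposited quantifications of the same libraries gave nearly the same summed TPM and different single genes. The gene table summed to 1369 TPM in replicate 2 and 1364 TPM in replicate 1, and the kallisto-format table to 1387 and 1424 TPM. By class, the gene table gave 686 TPM of H4 in replicate 2 against 749 in the kallisto-format table, and 671 against 694 in replicate 1. For H2A it gave 209.98 against 239 in replicate 2 and 221 against 297 in replicate 1, and for H2B 264 against 213 and 257 against 213. Detection in both tables was met by 55 genes, and 8 of the 10 highest were the same. Reads, unlike TPM, were fewer in the kallisto-format table: the gene table had 16703 in replicate 2 and 19133 in replicate 1 on the histone genes, against 14808 and 16231. These were 0.0516% and 0.0564% of the reads on genes, against 0.0402% and 0.0439%. With both tables divided by the lengths of the gene table, the sums were 1382 and 1377, against 1270 and 1244.

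The median absolute log2 gap between the tables was 0.48 for the histone genes and 0.11 for all coding genes tested, on the log2(TPM + 0.1) scale. At least 2-fold apart in the same direction in both libraries were 8 of the 60 genes that averaged 1 TPM in either table. The same rule called 1.57% of 13591 coding genes (0.265% higher in the gene table and 1.3% lower). The 3 genes higher in the gene table were Hist1h4n, Hist1h4i and Hist1h3h, and the 5 lower were Hist2h2aa1, Hist1h3b, Hist1h2ai, Hist1h2bp and Hist1h2ak. Hist1h2ak lies outside the fixed rule for naming genes and was chosen after its values were seen.

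Hist1h4n had 38.2 TPM in replicate 2 and 15.1 TPM in replicate 1 in the gene table, against 2.45 and 5.52 TPM in the kallisto-format table, log2 gaps of 3.91 and 1.44. Hist1h4i had 29.1 and 29.8 TPM, against 9.62 and 12.8 TPM, gaps of 1.58 and 1.22. Hist1h3h had 17.9 and 24.8 TPM, against 7.74 and 8.76 TPM, gaps of 1.20 and 1.49. All 3 were higher in the gene table in each animal, without overlap. Hist2h2aa1 had 2.97 and 11.2 TPM in the gene table, against 40.04 and 42.2 TPM in the kallisto-format table, gaps of -3.71 and -1.90. Hist1h3b had 4.14 and 3.96 TPM, against 22.2 and 28.9 TPM, gaps of -2.40 and -2.83. Hist1h2ai had 10.9 and 14.2 TPM, against 48.1 and 43.7 TPM, gaps of -2.14 and -1.62. These were lower in the gene table in each animal, also without overlap. Hist1h2bp had 3.70 and 3.10 TPM against 8.58 and 13.3 TPM, with 2 transcript models that the tables ranked in opposite order. The gene table gave 3.70 and 2.90 TPM to its intronless model of 469 bases, and the kallisto-format table gave 7.83 and 12.9 TPM to its spliced model of 621 bases. Hist1h2ak had 4.41 and 5.51 TPM against 8.98 and 11.7 TPM.

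The length used differs between the tables. The gene table divides by the length minus 100 bases, with the models of a gene weighted by their levels. For the kallisto-format table, the effective length of a gene was taken as the plain mean over all its transcripts. It was a median of 0.715 of that of the gene table in replicate 2 and 0.654 in replicate 1 for the histone genes. For all coding genes it was 0.800 and 0.771. In genes with several transcripts, this ratio therefore also holds the difference in averaging. For Hist1h4k, the gene table had an effective length of 212 bases, against 99.0 in replicate 2 and 129 in replicate 1 in the kallisto-format table. Its level of 148 TPM in replicate 2 and 146 TPM in replicate 1 stood against 286 and 136 TPM there, from 702 and 774 reads against 840.4 and 499. Hist1h4h had 119 and 124 TPM, against 160.0 and 255 TPM. The other members named for a wide gap were Hist2h3c2, with 1.83 and 1.25 TPM against 2.93 and 5.80 TPM, Hist1h2ao and Hist1h2ah, which the pairs and the animals below describe.

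**Figure D3:**
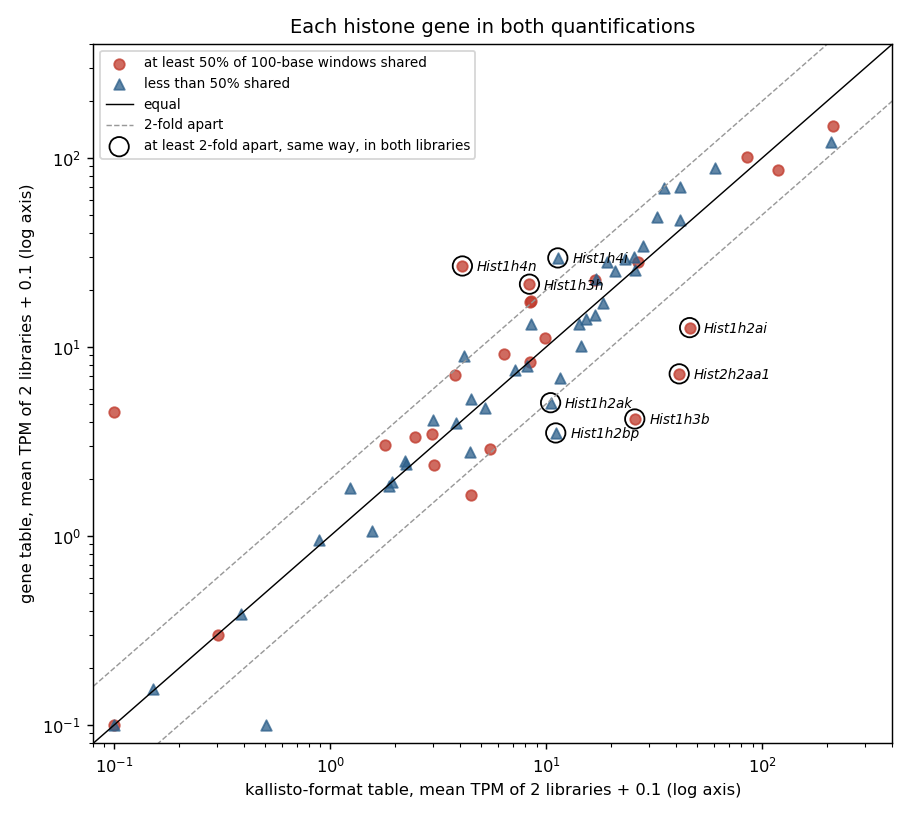
Mean TPM + 0.1 of the 2 libraries in the gene table (y axis) and the kallisto-format table (x axis), both on log axes, for each histone gene. Circles share at least 50% of their 100-base windows with another gene, triangles less, and rings mark the 8 genes at least 2-fold apart (dashed lines) the same way in both libraries.

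Genes with the same coding sequence show how reads are split between copies. There were 5 such pairs. Hist1h4m and Hist1h4n summed to 116 TPM in replicate 2 and 111 TPM in replicate 1 in the gene table, against 114 and 129 TPM in the kallisto-format table, although the share of Hist1h4n differed. Hist2h2aa1 and Hist2h2aa2 summed to 103 and 112 TPM, against 107 and 145 TPM. Summed, neither pair was 2-fold apart between the tables, while Hist1h4n and Hist2h2aa1 alone were. Summing did not close every gap: of 5 groups of genes linked by at least 80% shared windows, Hist1h2ad, Hist1h2ah and Hist1h2ai together stayed apart. They summed to 20.3 TPM in replicate 2 and 17.1 TPM in replicate 1, against 54.9 and 53.5 TPM in the kallisto-format table, log2 gaps of -1.43 and -1.64.

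Hist1h2bq and Hist1h2br received almost the same value in each library, 19.6 and 19.2 TPM in replicate 2 and 15.4 and 15.3 TPM in replicate 1. Their sum of 38.7 and 30.6 TPM in the gene table stood against 22.6 and 10.6 TPM in the kallisto-format table. Hist1h2ao and Hist1h2ap summed to 12.1 and 18.7 TPM, against 6.51 and 13.1 TPM, and the kallisto-format table gave every read to Hist1h2ap. Hist2h3c1 was at 0 in both tables and both libraries, and Hist2h3c2 carried the whole of their sum. Hist2h3c1 shares all of its windows with Gm20634, a noncoding transcript that overlaps it and Hist2h2aa1 on the same strand and stood at 2.37 TPM in replicate 2 and 2.68 TPM in replicate 1.

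**Figure D4:**
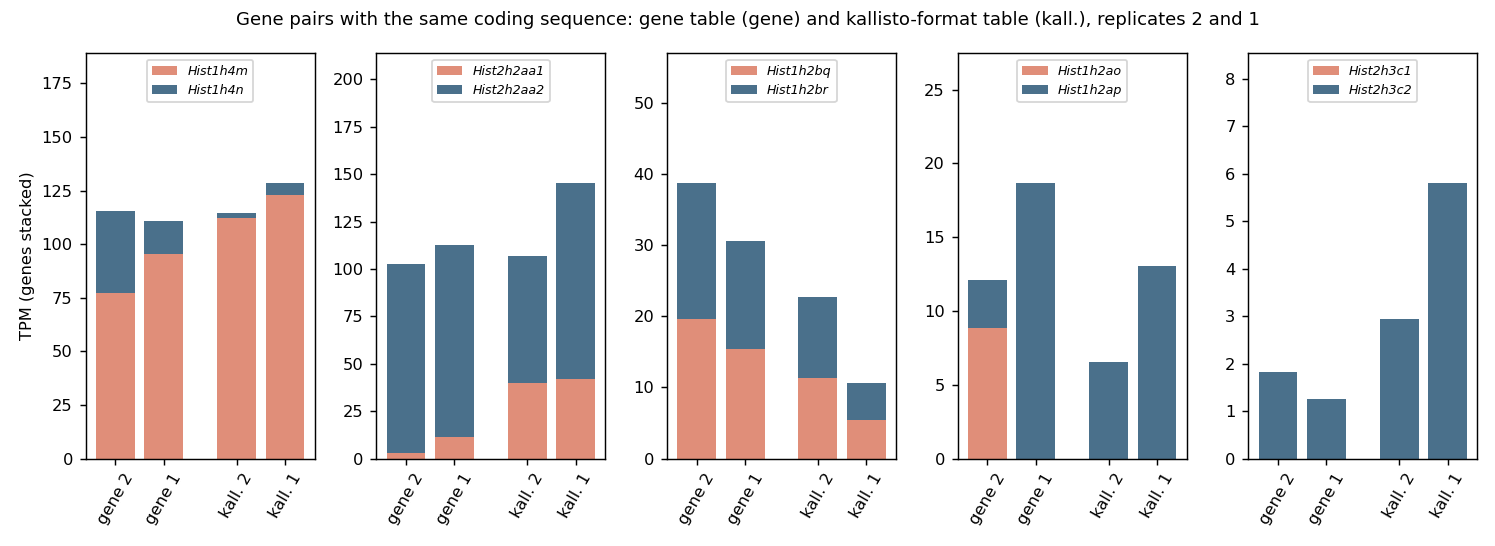
TPM (y axis, from 0) of the 5 pairs of genes with the same coding sequence, stacked, in the gene table (gene) and the kallisto-format table (kall.) for replicates 2 and 1. The height of the Hist1h4m and Hist1h4n stack lies between 111 and 129 TPM in all 4 bars, while the split between the genes of a pair changes.

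Between the animals, most histone genes differed little. Over the 62 genes that reached 10 reads in either library, the median absolute log2 ratio of replicate 2 over replicate 1 was 0.27, and 43 of them, or 69.4%, lay under 0.5. The corresponding values for all coding genes tested were 0.10 and 92.3%. The median log2 ratio over the 62 genes was -0.12, against -0.01 over all coding genes tested. The summed reads of the histone genes, in which highly read genes weigh more, had a log2 ratio of -0.16 (95% counting interval -0.19 to -0.13). By the counting rule, which asks for a 2-fold ratio and a counting interval that excludes equal levels at the 0.1% level, 7 of the 62 genes were called, 3 higher in replicate 2 and 4 higher in replicate 1. The rule called 1.22% of 19484 genes in all (0.57% and 0.647% in the same order). The 3 genes were Hist1h2ao, Hist1h2ah and Hist1h4n, and the 4 were Hist1h2ap, Hist1h2af, Hist2h2aa1 and Hist1h2bk.

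Of these 7, 5 are H2A genes, and all shared at least 50% of their windows with another gene. The counting rule does not include the uncertainty of assigning reads to copies: for all 7, the intervals deposited beside the TPM overlapped between the animals. Hist1h2ao had 74.8 reads in replicate 2 and 0 in replicate 1, with deposited intervals of 0.24 to 11.9 TPM in replicate 2 and 0 to 9.47 TPM in replicate 1. Hist1h2ah had 45.7 reads in replicate 2 and 0 in replicate 1, with intervals of 1.71 to 11.01 TPM in replicate 2 and 0 to 4.19 TPM in replicate 1. No fold is given for these 2 copies. Hist1h4n had 281 reads in replicate 2 and 125 in replicate 1, a log2 ratio of 1.20 (95% counting interval 0.89 to 1.52). The 4 genes lower in replicate 2 were Hist1h2ap at -2.61 (-3.26 to -2.05), Hist1h2af at -2.34 (-4.18 to -1.06), Hist2h2aa1 at -2.04 (-2.66 to -1.49) and Hist1h2bk at -1.89 (-3.04 to -0.95). Their reads in replicate 2 were 28.1, 4.9, 32.2 and 11.1, against 178, 28.4, 136 and 42.8 in replicate 1.

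Among genes with at least 50% shared windows, 7 of 23 were called and the median absolute log2 ratio was 0.51. Among those with less, 0 of 39 were called and it was 0.20, with the largest ratio at 1.46 in Hist1h3c, from 16.9 reads in replicate 2 and 6.36 in replicate 1. The limit of 50% was chosen after seeing the data. Summed over the pairs with the same coding sequence, none of the 5 sums met the rule: Hist1h2ao with Hist1h2ap stood at -0.75 (-1.12 to -0.40), Hist2h2aa1 with Hist2h2aa2 at -0.27 (-0.40 to -0.15) and Hist1h4m with Hist1h4n at -0.04 (-0.18 to 0.10). Of 61 genes tested in the kallisto-format table, 2 were called, against 1.35% of all genes tested there. They were Hist1h2af at -2.54, which the gene table also called, and Hist1h4f at 1.27, which had 474 reads in replicate 2 and 468 in replicate 1 in the gene table. Hist1h2ah, Hist1h4n and Hist2h2aa1 stood at -0.80, -1.06 and 0.08 there, against their signs in the gene table, and Hist1h2ao had no read.

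**Figure D5:**
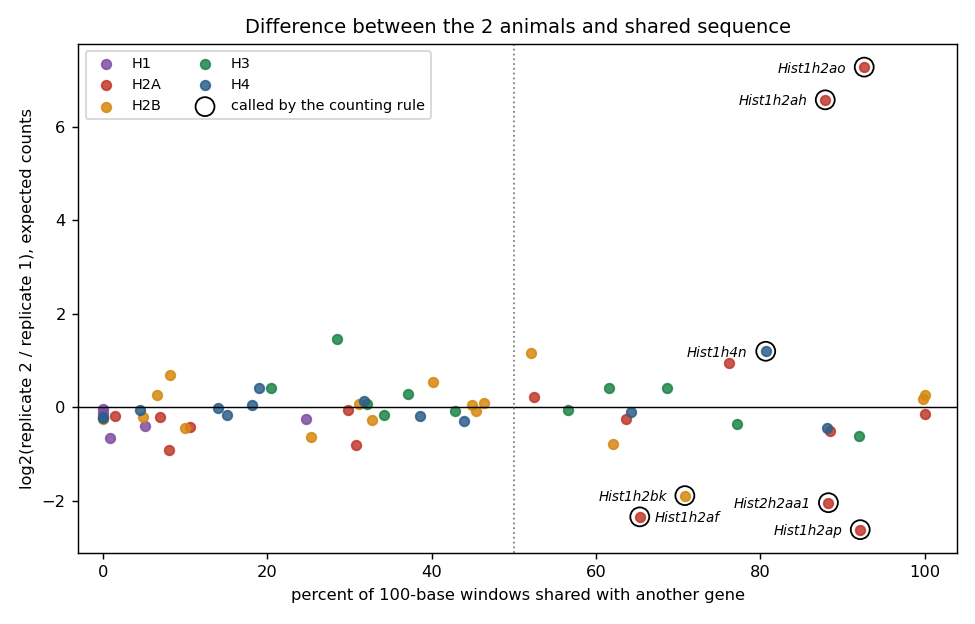
Log2 ratio of expected counts, replicate 2 over replicate 1 (y axis), against the percent of 100-base windows shared with another gene (x axis), for the 62 genes that reached 10 reads in either library. The 7 ringed genes called by the counting rule all lie right of the dotted line at 50% shared.

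Choroid plexus markers also separated the animals in the gene table. All 3 (Kl, Folr1 and Tmem72) were higher in replicate 1. They summed to 2.65 TPM in replicate 2 and 11.0 TPM in replicate 1. In the kallisto-format table, Kl stood at 1.83 and 5.42 TPM and Folr1 at 0.64 and 4.22 TPM in the same order. Tmem72 was nearly equal there, at 4.95 and 5.18 TPM. Markers of excitatory neurons, inhibitory neurons, astrocytes, oligodendrocytes, their precursors, microglia and endothelium, 29 genes in all, were all detected and held no gene called. Smaller differences were present among them: 14 of the 15 markers of astrocytes, oligodendrocytes, microglia and endothelium had a log2 ratio below 0, and in 11 the 95% counting interval lay wholly below 0. Their median log2 ratios were -0.14, -0.12, -0.16 and -0.22 in that order, beside a median of -0.12 for the histone genes and -0.16 for their summed reads. Excitatory neurons stood at 0.03, inhibitory neurons at -0.10 and oligodendrocyte precursors at -0.02. Of the 11 markers of neurons, 8 had a ratio below 0, with the interval wholly below 0 in 5 and wholly above 0 in 1. Of the 4 markers of neuroblasts and neural stem cells, Eomes was called lower in replicate 2, with 4 reads in replicate 2 and 31 in replicate 1, while Dcx stood at 0.03, Sox11 at -0.01 and Neurog2, too low to be tested, at 1.91. The part of these differences in those of the histone genes was not tested.

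Near the limit of detection, Hist2h3c2 with 1.83 TPM in replicate 2 and 1.25 TPM in replicate 1 and Hist1h2ae with 1.3 and 2.07 TPM lay just inside. Hist1h2af with 0.74 and 3.80 TPM and Hist1h2ac with 0.63 and 1.07 TPM lay just outside. Of the 11 genes not detected, the others were Hist1h2ao, Hist1h2ah, Hist1h3c, Hist1h2bh, Hist1h2an, Hist2h3c1 and the 3 testis genes, and 2 of them were above 6 TPM in replicate 2 and at 0 in replicate 1.

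Overlapping annotation touches other values. On the same strand 7 of the 67 genes overlap another gene, among them Hist1h1e with Hist1h2be over 496 bases and Hist2h2bb with the noncoding Gm42743 over its whole 381 bases. On the opposite strand 21 do, in most H2A genes with an annotated microRNA entry near 0 TPM. The strand setting of the counting is not given in the sources used here. The symbol Hist1h2al, annotated as a processed pseudogene on chromosome 13 from 51202727 to 51203065 and thus outside the 67, had 99.1 reads in replicate 2 and 142 in replicate 1 in the gene table, 18.6 and 23.9 TPM, and none in the kallisto-format table. Hist3h2bb-ps, a processed pseudogene between the genes of chromosome 11, stood at 9.53 and 10.9 TPM in the gene table and 13.7 and 16.7 TPM in the kallisto-format table.

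Of 16 replication-independent histone genes 12 were detected, with a summed level of 487 TPM in replicate 2 and 489.9 TPM in replicate 1. H3f3b and H3f3a, which encode the H3 variant deposited outside S phase, stood at 121 ± 2.34 and 113 ± 0.396 TPM (SD, n = 2), each near the sum of all 12 clustered H3 genes at 129 ± 2.46 TPM. H2afz, the gene of the variant found at promoters, stood at 74.2 ± 2.60 TPM. Of 26 genes of histone mRNA transcription and processing 24 were detected. The 3 highest were Srrt at 77.9 ± 14.1 TPM and the cleavage factor genes Cstf2 and Sympk at 49.1 ± 6.38 and 43.1 ± 3.71 TPM. Slbp stood at 11.7 ± 1.14 TPM, and Lsm10 and Lsm11, subunits of the U7 particle that cuts these mRNAs, at 6.38 ± 0.0495 and 5.57 ± 0.148 TPM. Of 24 histone chaperone genes 22 were detected, with Nap1l5 at 159 ± 6.58 TPM, Anp32a at 123 TPM in replicate 2 and 117 TPM in replicate 1, and Nap1l1 at 93.2 ± 10.5 TPM in front.

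Markers of dividing cells were low beside them. Of 22 such genes 11 were detected, and their median was 1.44 TPM. The highest were Pcna, the clamp of the replication fork that also serves DNA repair, at 23.2 ± 0.693 TPM, the cyclin gene Ccne1 at 7.72 ± 0.0212 and the replicative helicase gene Mcm7 at 6.79 ± 0.474 TPM. Mki67, a marker of cycling cells, stood at 0.280 ± 0.0141 TPM and the mitotic topoisomerase gene Top2a at 0.52 TPM in replicate 2 and 0.48 TPM in replicate 1, both below detection. No gene of these 4 lists was called between the animals, where the rule called 1.22% of all genes.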

How the data were processed

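Total RNA-seq of left cerebral cortex from 2 mice was read as deposited. Per the file headers, the authors deposited per library one table of genes and one of transcripts in RSEM format, with expected counts (estimated reads, not whole numbers), TPM and the percent of a gene's level on each isoform, and a kallisto-format transcript table with estimated counts and TPM. Effective lengths of the gene table are the length less 100 bases. The build is mm10; no aligner, program version or strand setting is given in the sources read. Reads on genes numbered 32380330 in replicate 2 and 33925221 in replicate 1.

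Kallisto-format values were summed per gene over GENCODE M21 transcripts. Expected counts were rounded to whole numbers and scaled by edgeR 4.0.16 TMM factors (R 4.3.3; DESeq2 1.42.0 size factors as an alternative), and ratios have exact Clopper-Pearson 95% intervals (scipy 1.17.1) that cover counting error only, with 0.5 reads added. Genes needed 10 reads in a library, or a mean of 1 TPM in either table with 0.1 TPM added. With 1 group there is no replicated test and no p-value. The counting rule and the rule for gaps between the tables were tested on simulated data. Those data had independent counts for each gene and no reads shared between copies, and the sequence steps were not simulated. Sequences were read from GRCm38 transcripts (Python 3.11.15), and promoters come from RefSeq. Shared windows, stem-loops and identical copies are thus those of the reference, and variants of the sequenced animals were not examined. Named are the 10 highest genes, the highest of each class, every gene called between the animals, the 10 widest gaps between tables, the 2 just inside and outside detection, pairs with one coding sequence, testis genes, the highest of each place and the 3 highest of each list; other genes named were chosen after their values were seen. The genes and lists were chosen with earlier results of these data known.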

Additional observations from a re-analysis of the deposited data

How the results depend on the processing

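The detected count stayed between 56 and 59 under every alternative run. The median level of 8.17 TPM was 9.51 TPM over the genes that reached 10 reads and 18.7 TPM with TPM rescaled to nuclear protein-coding genes, and lay between 8.23 and 8.82 TPM with 1 library left out. The summed 1366.75 TPM was 1405 TPM in the kallisto-format table and 3138 TPM rescaled. The 7 genes called between the animals were the same 7 under total-read scaling, DESeq2 size factors, no filter and 0.1 reads added, while kallisto-format counts called 2, of which 1 was shared. There Hist1h2ah (-0.80), Hist1h4n (-1.06) and Hist2h2aa1 (0.083) changed sign; the cause was not tested. The 8 genes apart between the tables numbered 7 or 8 under other pseudocounts and no filter, and 8 rescaled, of which 7 were shared and the split was 4 higher and 4 lower. With a single library they numbered 12 (without replicate 1) and 17 (without replicate 2), where only 1 library has to meet the rule. By reads scaled to a fixed total in place of TPM, chosen after seeing the data, 12 were apart, 9 higher and 3 lower in the gene table, of which 6 were shared. No paired analysis was possible because the study has 1 group. Depth limits the genes near 0 reads, and shared sequence can limit single copies also where reads are many.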
